A study of Mus musculus with 83 samples.

Results

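The genes described here are those on the TATA list that was deposited with a study of TBP depletion in mouse embryonic stem cells (mESCs). The list names 5357 transcripts under 5348 symbols, of which 5265 are genes of the Pol II count tables. Symbols starting with Rpl, Rps or Eef were left out (43, of which 3 are S6 kinase genes and not ribosomal proteins), leaving 5222 TATA-list genes. Of these, 5111 are in all 8 tables, out of 27752 genes there, and the 22200 other genes without those prefixes served as comparison. The remaining 111 are only in the larger tables used for B8. How the list was drawn up is not given in the sources used here.

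The TATA box is a short A- and T-rich element just upstream of the start site of some Pol II genes. TBP, a subunit of TFIID, binds it and bends the DNA, and TFIIA, TFIIB and Pol II then assemble around it. Most mammalian promoters lack the element and many of those lie in CpG islands, whereas inducible and tissue-specific genes, heat shock genes among them, often carry it.

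C64 mESCs carry a degron on both copies of TBP (mAID-TBP), so that indole-3-acetic acid (IAA) depletes the protein, though not completely, and they express H3.3-GFP. B8 is a single clone derived from C64 in which Tbpl1, which encodes the TBP paralog TRF2, is knocked out, so every library comes from cells with the TBP degron. Pol II occupancy was profiled by CUT&Tag, where an antibody tethers a transposase to its target. Groups of 2 libraries each were C64 with 500 µM IAA for 6 h and control, heat shock (42 °C, 30 min) with IAA and without (all run 2), IAA for 16 h and control, and retinoic acid for 16 h with IAA and without (all run 3), while B8 with IAA for 6 h and B8 control had 4 libraries each (2 in run 6, 2 in run 8). The study describes its replicates as biological and independent, the labels do not say whether they were separate cultures, and the p-values measure the spread between these libraries.

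Reads over genes numbered 3854622 to 5056322 per C64 library, 900651 to 1157308 in B8 run 6 and 2330887 to 2523832 in B8 run 8. In B8 control replicate 2 of run 6, 11.8% of reads fell outside the genes of the C64 tables, more than in any other B8 library. Tbpl1 is itself on the TATA list, and it had 0.0 to 4.44 CPM (counts scaled to library size; median 3.57) in the 8 B8 libraries, against 5.95 to 14.9 CPM (median 10.1) in the 16 C64 libraries, with no overlap. Tbp is not on the list and ranged over 24 to 50.2 CPM in B8, against 22.8 to 46.7 CPM in C64. The degron acts on the protein, so this does not check the depletion. The 10 mESC markers had a median of 2.41 CPM per kb in C64 controls and 2.69 in B8 controls, with 1 of 10 below 1 CPM, against 0.297 and 0.348 CPM per kb for 8 fibroblast markers. The mesoderm list (3.47 CPM per kb in C64 controls) was not below the mESC list. In bulk libraries, fewer cells with a gene occupied and less Pol II per cell cannot be told apart.

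The label of the list was first checked against sequence. TATAAA or TATATA, read on the gene's own strand and lying wholly 40 to 20 bases before the listed start, was found at 450 of 5119 starts (8.79%) of TATA-list genes. The same search gave 1.06% of 27457 starts on the TATA-less list and 2.62% of 32851 RefSeq promoters. On the opposite strand the shares were 3.91%, 0.754% and 1.42%, but TATATA reads the same on both strands. Windows with TATATA (2.93%, 0.459% and 0.907%) are therefore counted on both, and the strands are not compared independently. On the gene's strand 140 to 120 bases before the start, the shares were 0.586%, 0.514% and 0.618%. The motif was thus more frequent in the TATA-list windows, at the position of a TATA box, but most listed starts did not have these letters there. TATAAA made up 6.45% and TATATA 2.93% of the listed starts, and the bare letters TATA in the same interval 13.6%. Of 4006 TATA-list genes with a RefSeq promoter, 468 had the motif there, and 295 genes had it at both starts. The listed start lay within 100 bases of the gene start of the count tables for 83.3% of genes and over 1000 bases away for 9.57%. The 300-base windows of TATA-list starts were lower in GC than those of TATA-less starts (median 53.3% against 57.7%), and 62.1% against 48.1% of them had a CpG ratio, observed over expected, below 0.6. For all RefSeq promoters the values were 52.7% and 64.2%. The TATA-list starts were thus close to promoters in general, and the TATA-less starts stood apart. These sequence features are a description of the list and were not tested.

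**Figure D1:**
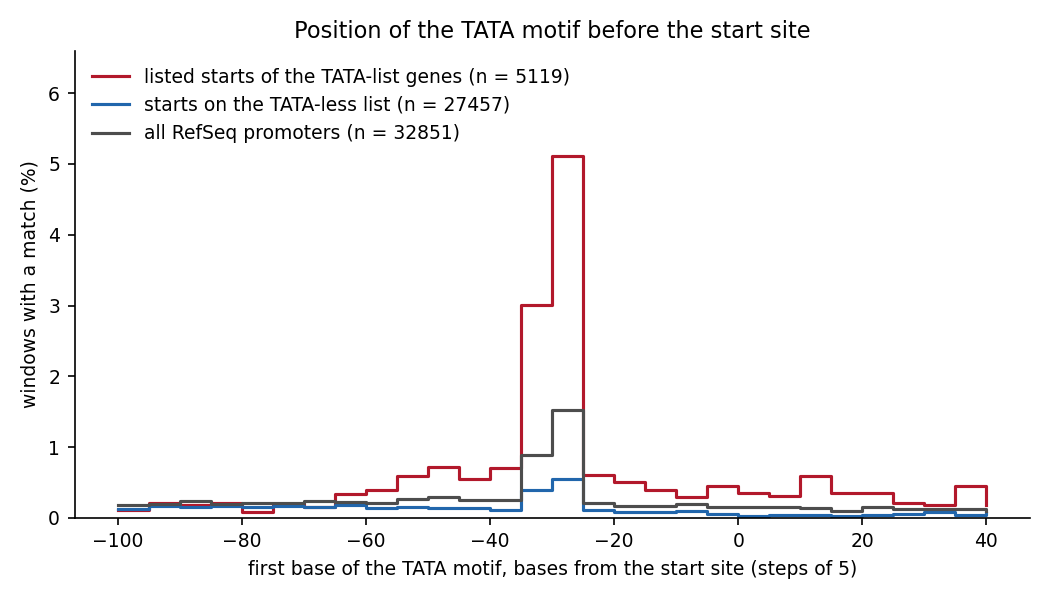
Percentage of windows (y axis) in which TATAAA or TATATA, on the gene's strand, begins within each step of 5 bases (x axis, bases from the start site), for listed starts of TATA-list genes (red), TATA-less starts (blue) and all RefSeq promoters (grey). The red line peaks at 5.12% in the step that opens 30 bases before the start, against 0.554% for TATA-less starts.

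The promoters below belong to genes whose occupancy is described later and are shown because they span the range from a plain TATA box to none. Each runs 5′ to 3′ from 50 bases before to 10 bases after the start, from RefSeq on GRCm38.p6 (for Icam1 from the listed start, on the same build), with the motif in capitals. The first 3 belong to genes that fell upon IAA treatment and have the motif.
Hspa5 (chr2:34772040-34772099, plus strand): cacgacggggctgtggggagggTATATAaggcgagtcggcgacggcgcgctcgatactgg
Morf4l2 (chrX:136743677-136743736, minus strand): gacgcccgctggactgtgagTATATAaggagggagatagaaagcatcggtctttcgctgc
Rnd3 (chr2:51149102-51149161, minus strand): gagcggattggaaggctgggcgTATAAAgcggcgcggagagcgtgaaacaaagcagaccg

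The next pair also fell upon IAA treatment and has neither motif in this window, although Sdc4 has tataag at a similar place.
Snx5 (chr2:144270563-144270622, minus strand): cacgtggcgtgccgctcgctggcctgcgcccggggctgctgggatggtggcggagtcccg
Sdc4 (chr2:164443179-164443238, minus strand): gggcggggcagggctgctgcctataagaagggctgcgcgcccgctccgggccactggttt

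Among genes that rose under heat shock, Ccn1, Stip1 and Icam1 have the motif while Hspa1b and Coil do not.
Ccn1 (chr3:145649976-145650035, minus strand): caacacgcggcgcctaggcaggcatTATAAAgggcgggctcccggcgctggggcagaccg
Stip1 (chr19:7040017-7040076, minus strand): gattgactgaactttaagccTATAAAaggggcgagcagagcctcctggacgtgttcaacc
Icam1 (chr9:21015935-21015994, plus strand): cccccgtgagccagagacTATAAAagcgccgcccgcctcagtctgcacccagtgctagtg
Hspa1b (chr17:34959229-34959288, minus strand): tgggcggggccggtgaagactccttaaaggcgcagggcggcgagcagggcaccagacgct
Coil (chr11:88973885-88973944, plus strand): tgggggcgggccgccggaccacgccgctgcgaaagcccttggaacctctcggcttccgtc

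Counted from the start, with −1 as the base before it, the motif begins at −28 in Hspa5 and Rnd3, −30 in Morf4l2 and Stip1, −25 in Ccn1 and −32 in Icam1. For Hspa5 and Stip1 it was found at the RefSeq start and not at the listed one. A match is a match of letters, and its absence says only that these letters are not in the window.

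TATA-list genes were mostly protein-coding (99.7% of those with a RefSeq entry, against 73.2% of other genes). As a measure of the reads behind each gene, the median TATA-list gene had 12.3 CPM in untreated controls, against 7.62 CPM for all other genes and 19.7 CPM for other protein-coding genes. Genes with the motif at the listed start had fewer reads and were shorter, with a median of 2.57 CPM and 7150 bases, against 14.1 CPM and 18500 bases for those without it. All TATA-list genes together held 22.6% of the reads in controls, and 307 of 5111 had no read in any of the 24 libraries. In the fit over all libraries, 3913 of 5111 (76.6%) passed the filter on low counts, but 238 of 450 (52.9%) of those with the motif did, so much of that class went untested. Among tested genes the median occupancy per length was 0.964 CPM per kb for TATA-list genes (0.823 with the motif and 0.975 without), against 1.12 CPM per kb for other genes.

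To ask what TBP depletion did to Pol II at these genes, the effect of IAA was first estimated over 6 contexts (C64 at 6 h, C64 at 16 h, heat shock, retinoic acid, B8 run 6 and B8 run 8), each with its own IAA and untreated libraries. Pol II occupancy fell significantly at 60 of 3913 TATA-list genes and rose at 2, where called means an adjusted p below 0.05 in edgeR's quasi-likelihood test, adjusted over all 17873 genes tested. Of all genes tested, 0.733% were called lower and 0.0727% higher. The share of TATA-list genes called was 1.58%, against 0.806% of all genes tested, 0.527% of other genes and 0.539% of other genes in the same bins of control CPM and gene length. Most TATA-list genes barely moved, with a median log2 change of −0.0037, against 0.0005 for other genes. TMM scaling sets such changes relative to all genes, so a change shared by all would not show.

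The 3 genes that fell furthest, Hspa8, Pabpc4 and Snx5, belong to a list of snRNA and snoRNA host genes. All 5 TATA-list genes on it were called lower, beside 0.733% of all genes tested, the others being Npm1 and Pabpc1. Their median log2 change was −1.39, against −0.0011 over all genes tested. This host gene list was chosen with earlier results of these data known, so its count and median are not an independent test. Most of its TATA-list genes are also among those the study reports as lower with IAA, in libraries that are part of this fit. Hspa8 encodes the constitutive cytosolic chaperone of the Hsp70 family and carries Snord14c, Snord14d and Snord14e within it. Its occupancy was 43.4, 110 and 389 CPM (lowest, median, highest of 12 libraries) with IAA, against 168, 351 and 683 CPM without. The groups overlapped over all contexts, with the heat-shocked pair the highest of the IAA libraries, but within each of the 6 contexts both IAA libraries lay below both untreated ones. The log2 change was −1.62 ± 0.11 (SE; adjusted p = 1.58e-07, edgeR).

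Pabpc4, a cytoplasmic poly(A)-binding protein, had 58.2, 84.4 and 108 CPM with IAA, against 101, 232 and 398 CPM without (log2 change −1.54 ± 0.11, adjusted p = 3.09e-08, edgeR). Here too the libraries did not overlap in any context. Snx5, a sorting nexin of endosomes that contains Snord17 and overlaps Mgme1, had 98.4, 216 and 411 CPM, against 130, 715 and 1095 CPM (log2 change −1.39 ± 0.11, adjusted p = 3.62e-06, edgeR). Only under heat shock did its libraries overlap, with 184 and 98.4 CPM with IAA, against 287 and 130 CPM without. Npm1, the nucleolar histone chaperone nucleophosmin, changed by −0.97 ± 0.11 and Pabpc1 by −0.96 ± 0.11. Because reads were counted over the whole gene and CUT&Tag fragments carry no transcript strand, reads from a host gene and from a small RNA or neighbour inside it cannot be told apart.

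**Figure D2:**
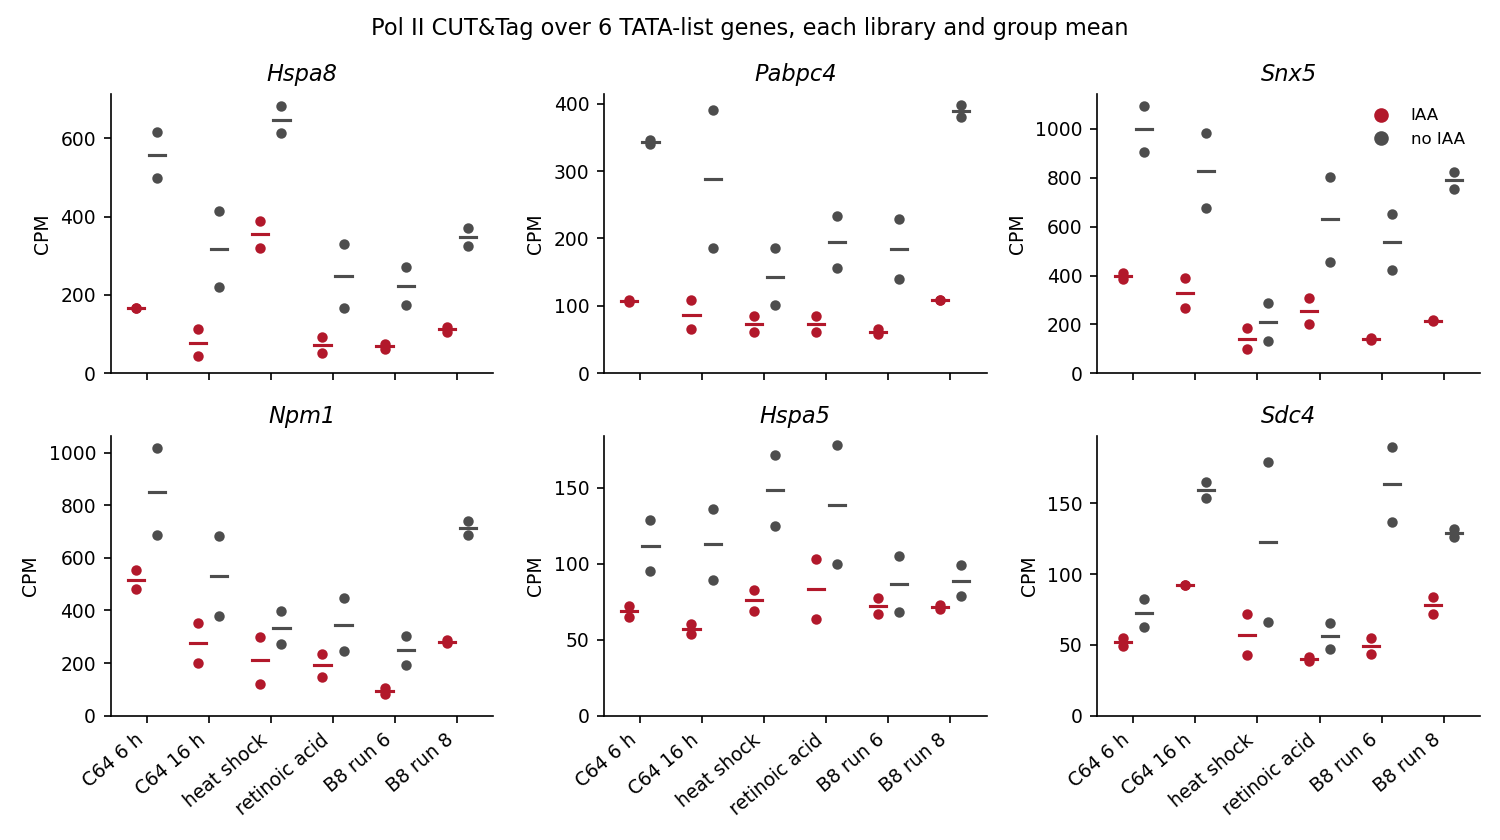
Pol II CUT&Tag occupancy in CPM (y axis, from 0) over 6 TATA-list genes in each library of 6 contexts (x axis), with IAA (red, left) and without (grey, right), bars marking means of 2 libraries. The red points lie below the grey ones in every context for Hspa8 and Pabpc4, while Snx5 overlaps under heat shock.

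Of 19 TATA-list members of the heat shock chaperone list, 4 were called lower and 0 higher, with a list median of −0.10, against −0.0011 over all genes tested, of which 0.733% were called lower. These were Hspa8, Hsp90ab1 (constitutive Hsp90; −0.93 ± 0.11), Hspa5 (the endoplasmic reticulum Hsp70, also called BiP; −0.68 ± 0.11) and Hsph1 (an Hsp110 chaperone; −0.53 ± 0.11). Hspa5 had 53.8, 69.8 and 103 CPM with IAA, against 68.3, 102 and 178 CPM without. In C64, its libraries were 65.3 and 72.4 CPM with IAA for 6 h, against 95.0 and 129 CPM in control, and 60.4 and 53.8 CPM at 16 h, against 136 and 89.6 CPM. In B8 run 6 they were 77.7 and 67.2 CPM, against 105 and 68.3 CPM, so that context showed little. Outside that list and chosen for their values, P4hb and Pdia6, both disulfide isomerases of the endoplasmic reticulum, changed by −0.74 ± 0.10 and −0.68 ± 0.11.

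On the glycolysis and glucose transport list, 3 of 9 members were called lower and 0 higher, beside 0.733% of all genes tested called lower (list median −0.26, against −0.0011 over all genes tested). These were the glucose transporters Slc2a1 (−0.59 ± 0.10) and Slc2a3 (−0.39 ± 0.10) and the glycolytic enzyme Gpi1 (−0.45 ± 0.10). The next 4 genes belong to none of the lists and were chosen for their values. Ahcy, which clears S-adenosylhomocysteine, changed by −0.92 ± 0.12, and its libraries with IAA lay below those without in 5 contexts but not under heat shock, where the log2 ratio was 0.04. Ctsl, a lysosomal protease, changed by −1.01 ± 0.11 and Sdc4, a heparan sulfate proteoglycan, by −0.86 ± 0.11. Ctsl and Klhl13, a ubiquitin ligase adaptor (−0.90 ± 0.12), were non-overlapping in all 6 contexts. That held, in the lower direction, for 13 of 3913 TATA-list genes tested and 16 of 13847 other genes. Sdc4 in B8 run 6 had the widest gap of its contexts, a log2 ratio of −1.71.

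The next counts stand beside 0.733% of all genes tested called lower. Cytoskeletal genes Actg1 (−0.76 ± 0.11) and Tubb2b (−0.62 ± 0.15) were the 2 called of 18 tested in the actin, tubulin and serum response factor list. Nr5a2, a nuclear receptor that sustains Pou5f1 expression, was the single call among 18 pluripotency genes (−0.47 ± 0.10, adjusted p = 0.0363, edgeR). Sqstm1, an autophagy receptor that overlaps Mrnip, changed by −0.54 ± 0.10. The median of the actin, tubulin and serum response factor list was −0.03 and that of the 38 immediate-early and stress factors, with 0 called, was −0.02. The 3 genes called lower that have the motif at the listed start were Hsp90ab1, Morf4l2 (−0.64 ± 0.12) and Rnd3 (−0.50 ± 0.14). The 2 called higher, M1ap (0.32 ± 0.11) and Elf1 (0.33 ± 0.10), were higher in all 6 contexts but by little, and Elf1 overlaps Wbp4.

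Each context was also tested on its own libraries. Of TATA-list genes called lower in the 5 other contexts, 40 of 40 had a lower mean with IAA in C64 at 6 h, 28 of 28 in C64 at 16 h, 45 of 46 under heat shock, 54 of 62 under retinoic acid, 42 of 45 in B8 run 6 and 24 of 26 in B8 run 8. Over all TATA-list genes tested, 47.7% (B8 run 8) to 57.1% (B8 run 6) were lower. The median log2 ratio of those genes in the context left out ran from −0.37 under retinoic acid to −0.82 in C64 at 16 h and B8 run 8. Over the 60 genes called lower in the joint fit, 57 were lower in every context, but those contexts chose them.

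Calls lower were concentrated among genes with many reads in controls, where a given change is easier to call. Control CPM is not scaled by length. The controls that set the bins are also part of the untreated side. The medians of other genes ran from 0.062 in the lowest CPM bin to −0.068 in the highest. In the highest of 5 bins of control CPM (77.5 to 2390 CPM), 42 of 809 TATA-list genes (5.19%) were called lower, against 1.43% of other genes in that bin. In the next bin it was 14 of 697 (2.01%), against 0.492%, and in the lowest 2 bins 0 TATA-list genes were called (edgeR, where all bins together held 425 TATA-list genes at an unadjusted p below 0.05). Across length the share of TATA-list genes called lower was 0.62% in the shortest of 5 bins, against 0.595% of other genes, and 1.5 to 2.14% in the other bins, against 0.215 to 0.628%. The bin medians of TATA-list and other genes stayed close, −0.08 against −0.07 in the highest CPM bin. The count depended on single contexts, being 26 without B8 run 8, 29 without C64 run 3 and 42 to 65 without any other. Of the 6 fits that each left out 1 context, 5 lost the calls of Nr5a2 and Rnd3, 4 those of Hsph1, Tubb2b, Sqstm1, M1ap and Elf1, 3 those of Pdia6 and Morf4l2, 2 those of Gpi1 and Actg1 and 1 those of Slc2a1 (C64 run 3) and Slc2a3 (B8 run 8). The highest adjusted p for these genes ranged over 0.0693 to 0.465 (edgeR), and it was reached without B8 run 8 for 9 of the 13, without C64 run 3 for Slc2a1, Tubb2b and Sqstm1 and without C64 run 2 for Morf4l2. Rnd3, M1ap and Elf1 also lost their call without the filter on low counts, and Elf1 with RLE scaling.

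Within single contexts few genes passed the test. In C64 with IAA for 6 h, 3 of 3477 TATA-list genes were called, all lower, a share of 0.0863%, against 0.0433% of all genes tested. Hspa8 had 162 and 163 CPM with IAA, against 486 and 595 CPM in control (−1.73 ± 0.19, adjusted p = 0.00395, edgeR). Pabpc4 had 103 and 106 CPM, against 338 and 328 CPM (−1.68 ± 0.19, adjusted p = 0.00395, edgeR). Snx5 had 376 and 400 CPM, against 885 and 1056 CPM (−1.32 ± 0.20, adjusted p = 0.0161, edgeR). For all 3 the IAA libraries lay far below control. Klhl13 (34.1 and 31.4 CPM, against 68.8 and 80.0 CPM) and Pabpc1 (123 and 103 CPM, against 223 and 236 CPM) missed the threshold, both at an adjusted p of 0.0576. Leaving out 1 library gave 3 to 12 calls (12 without IAA replicate b, 10 without IAA replicate a, 8 without control replicate a).

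In C64 with IAA for 16 h, 0 of 3545 TATA-list genes were called by edgeR's quasi-likelihood test (0.0% of all genes tested), with 105 at an unadjusted p below 0.05, 1 call by the likelihood-ratio test and 3 by DESeq2. Under heat shock it was 0 of 3610 (0.0% of all genes; 47 at an unadjusted p below 0.05, 0 by either other test), and under retinoic acid 0 of 3587 (0.0% of all genes; 26 at an unadjusted p below 0.05, 0 by either). The same genes nonetheless had large differences there. Pabpc4 at 16 h had 110 and 65.6 CPM with IAA, against 389 and 188 CPM in control, a log2 change of −1.71 ± 0.28 that did not pass (adjusted p = 0.999, edgeR). Under retinoic acid Hspa8 had 93.1 and 54.8 CPM with IAA, against 333 and 175 CPM without, and under heat shock 398 and 342 CPM, against 691 and 641 CPM. In each of these the libraries did not overlap, although the untreated libraries also differed from each other. Same-numbered libraries deviated together in run 3. With a replicate block for them, both run 3 comparisons gave calls where this fit gave none (see the closing section). Under retinoic acid, leaving out IAA replicate 1 or untreated replicate 2 gave 1 call each. At 16 h, leaving out control replicate 2 gave 15 calls, control replicate 1 gave 4 and IAA replicate 1 gave 1.

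In B8 cells, in which Tbpl1 is knocked out, 186 of 2657 TATA-list genes were called after 6 h of IAA, 84 higher and 102 lower (2.62% and 3.61% of all genes tested went these ways), or 7.0%, against 6.23% of all genes tested, 5.8% of other genes and 6.03% of other genes in the same bins. Snx5 had 140, 148, 220 and 215 CPM with IAA (run 6, then run 8), against 665, 462, 798 and 743 CPM in control (−1.89 ± 0.14, adjusted p = 3.2e-06, edgeR). Pabpc4 had 60.4, 68.2, 110 and 108 CPM, against 235, 153, 386 and 373 CPM. Hspa8 had 78.7, 65.6, 119 and 106 CPM, against 278, 190, 360 and 319 CPM. The groups did not overlap for any of these 3, which was a condition for naming genes by size of change. All 5 snRNA and snoRNA hosts on the list were called lower (list median −1.64), but that list was chosen with earlier results of these data known.

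Several other genes fell in B8. Mid1, a microtubule-associated ubiquitin ligase on X, had 383, 340, 379 and 380 CPM with IAA, against 815, 677, 923 and 809 CPM in control (−1.12 ± 0.14, adjusted p = 5.47e-05, edgeR). Ass1, which makes argininosuccinate in arginine synthesis, changed by −1.06 ± 0.15, Msh4, a meiotic mismatch repair homolog, by −1.06 ± 0.17, and Cdkn1a, the p53-induced cell cycle inhibitor p21, by −0.99 ± 0.19. Nr5a2 had 254, 292, 363 and 372 CPM, against 393, 320, 942 and 928 CPM, with a gap mostly in run 8. Nr5a2 (−0.90 ± 0.14) and Esrrb (−0.51 ± 0.14) were the 2 called of 12 pluripotency genes tested.

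Genes that rose in B8 were led by Serpine3, a serine protease inhibitor gene that overlaps Ints6. It had 98.9, 74.2, 52 and 38.4 CPM with IAA, against 27.6, 10.2, 21.4 and 15.4 CPM in control (1.66 ± 0.22, adjusted p = 0.00139, edgeR). Ccl5, a chemokine gene with the motif at its listed start, had 35.9, 26.7, 25.1 and 19.4 CPM, against 7.76, 5.66, 10.9 and 9.52 CPM (1.52 ± 0.30, adjusted p = 0.00494, edgeR). Dapk3, a death-associated protein kinase, had 804, 842, 817 and 938 CPM, against 452, 349, 380 and 406 CPM. Ccl5 passed the filter on low counts through its IAA libraries alone, so a rise was built into its test. Groups that do not overlap were a condition for naming genes by size of change, so their separation is no further result. Ddx5, an RNA helicase, rose by 0.93 ± 0.14, Ppp1r10, a regulatory subunit of protein phosphatase 1, by 1.03 ± 0.14, and Slc3a1, a subunit of an amino acid transporter that overlaps Prepl, by 1.08 ± 0.18.

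Icam1, an adhesion molecule with the motif, had 36.7 and 41.4 CPM with IAA in run 6, against 36.2 and 30.6 CPM, and 60 and 69.4 CPM in run 8, against 22.7 and 24.5 CPM, so its increase (0.94 ± 0.21) came mostly from run 8. Of 104 tested genes with the motif at the listed start, 12 were called (11.5%), 10 of them higher, against 174 of 2553 (6.82%) without it, 74 of them higher. The number of calls in B8 rested on few libraries. It was 6 within run 6 and 634 within run 8, and 494 without control replicate 2 of run 6. It was 127 without control replicate 1 of run 6, 116 and 121 without IAA replicates 1 and 2 of run 6, 99 and 77 without IAA libraries a and b of run 8, and 90 and 66 without control libraries a and b of run 8. The calls of Nr5a2, Esrrb, Icam1, Hmox1 (heme oxygenase, −1.0 ± 0.22) and Taf4b (a TFIID subunit, 0.47 ± 0.14) were each lost without at least 1 library (adjusted p up to 0.145, edgeR).

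The difference of the 6 h IAA effect between B8 and C64 was tested as an interaction, and 1 of 3305 TATA-list genes passed, or 0.0303%, against 0.0913% of all genes tested and 0.117% of other genes in the same bins. This was Mid1 (−1.18 ± 0.24, adjusted p = 0.023, edgeR), and it passed no longer in 11 of 12 fits that left out 1 library (adjusted p up to 0.338, without C64 control b). Without control replicate 2 of B8 run 6, 26 genes passed. Cdkn1a (−1.19 ± 0.30) and Ccl5 (2.07 ± 0.47) did not pass (adjusted p = 0.121 and 0.15, edgeR), with 236 TATA-list genes at an unadjusted p below 0.05. In the controls themselves, 0 of 3091 TATA-list genes differed between B8 and C64 by the quasi-likelihood test (0.0% of all genes tested), with 177 at an unadjusted p below 0.05 and 5 calls each by the likelihood-ratio test and DESeq2. Nkd1, an inhibitor of Wnt signalling, had 82.3, 148, 86.7 and 82.5 CPM in B8, against 45.9 and 29.9 CPM in C64. Morf4l2, a chromatin factor, had 32.6, 28.4, 32.1 and 29.7 CPM, against 63.3 and 100 CPM. B8 and C64 were in different runs, so line and run cannot be told apart.

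Heat shock gave more calls among TATA-list genes than any IAA comparison in C64. Without IAA, 142 of 3528 were called, 89 higher and 53 lower (1.57% and 1.46% of all genes tested went these ways), or 4.02%, against 3.02% of all genes tested, 2.66% of other genes and 2.6% of other genes in the same bins. The surplus lay in the genes that rose, which were 2.52% of TATA-list genes, against 1.2% of other genes in the same bins, whereas 1.5% against 1.4% fell. Of 19 heat shock chaperone genes on the list, 10 were called higher and 0 lower, with a median log2 change of 1.2 against 0.03 over all genes tested. Of 37 immediate-early and stress factors tested, 7 were called higher (median 0.44).

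Among chaperones, Hsph1 had 1212 and 1748 CPM in heat-shocked cells, against 90.1 and 87.1 CPM in control (4.06 ± 0.27, adjusted p = 1.17e-06, edgeR). Hspa1b, a stress-inducible Hsp70, had 50.2 and 90.1 CPM, against 10.7 and 9.24 CPM, and Hspa1a 10.4 and 34.3 CPM, against 2.3 and 2.26 CPM. These copies are almost the same in sequence, which leaves the division of reads between them uncertain. The groups were far apart for all of these, and replicate b was the higher of the heat-shocked libraries each time. Hspb8, a small heat shock protein, rose by 2.30 ± 0.29, Stip1, which links Hsp70 and Hsp90, by 2.04 ± 0.26, Serpinh1, a collagen chaperone, by 1.95 ± 0.33, Hspb1, another small heat shock protein, by 1.90 ± 0.34, and Dnajb1, a co-chaperone of Hsp70, by 1.81 ± 0.28. Hsp90aa1, the inducible Hsp90, had 393 and 617 CPM, against 193 and 247 CPM (1.2 ± 0.26).

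Icam1 had 178 and 258 CPM in heat-shocked cells, against 19.2 and 17.7 CPM in control (3.56 ± 0.27, adjusted p = 1.17e-06, edgeR). Ccn1, a matricellular immediate-early gene, had 27.2 and 43.1 CPM, against 6.48 and 8.83 CPM (2.19 ± 0.34), and its relative Ccn2 17 and 16.3 CPM, against 6.48 and 4.11 CPM. Both sets of libraries were apart, a condition for naming genes by size of change. Coil, which encodes the Cajal body protein coilin, had 703 and 922 CPM, against 219 and 171 CPM (2.06 ± 0.27), and Pmaip1, a p53-regulated activator of apoptosis, rose by 2.24 ± 0.32. Of 18 genes on the pluripotency list, Tfcp2l1 (1154 and 1166 CPM, against 408 and 466 CPM in control), Dppa4 (39.2 and 33.9 CPM, against 12.8 and 11.7 CPM) and Socs3 were called higher and 0 were called lower. Socs3 is also on the list of immediate-early and stress factors and is counted among the 7 called higher there.

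Genes that fell under heat shock included several of those that fell with IAA. Snx5 had 279 and 131 CPM in heat-shocked cells, against 890 and 1070 CPM in control (−2.26 ± 0.27, adjusted p = 0.00138, edgeR), Npm1 388 and 273 CPM, against 674 and 993 CPM, and Pabpc4 181 and 102 CPM, against 340 and 333 CPM. Tubgcp5, a component of the gamma-tubulin ring complex, had 22.8 and 13.9 CPM, against 69 and 82.2 CPM (−2.04 ± 0.29), and Rbm39, a splicing factor, 338 and 133 CPM, against 753 and 853 CPM. The heat-shock comparison and IAA at 6 h share their control libraries. Prdx1, a peroxiredoxin, changed by −1.30 ± 0.26 and Gpi1 by −0.94 ± 0.26, whereas Gapdh had 108 and 103 CPM, against 145 and 228 CPM, and was not called (adjusted p = 0.0863, edgeR).

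**Figure D3:**
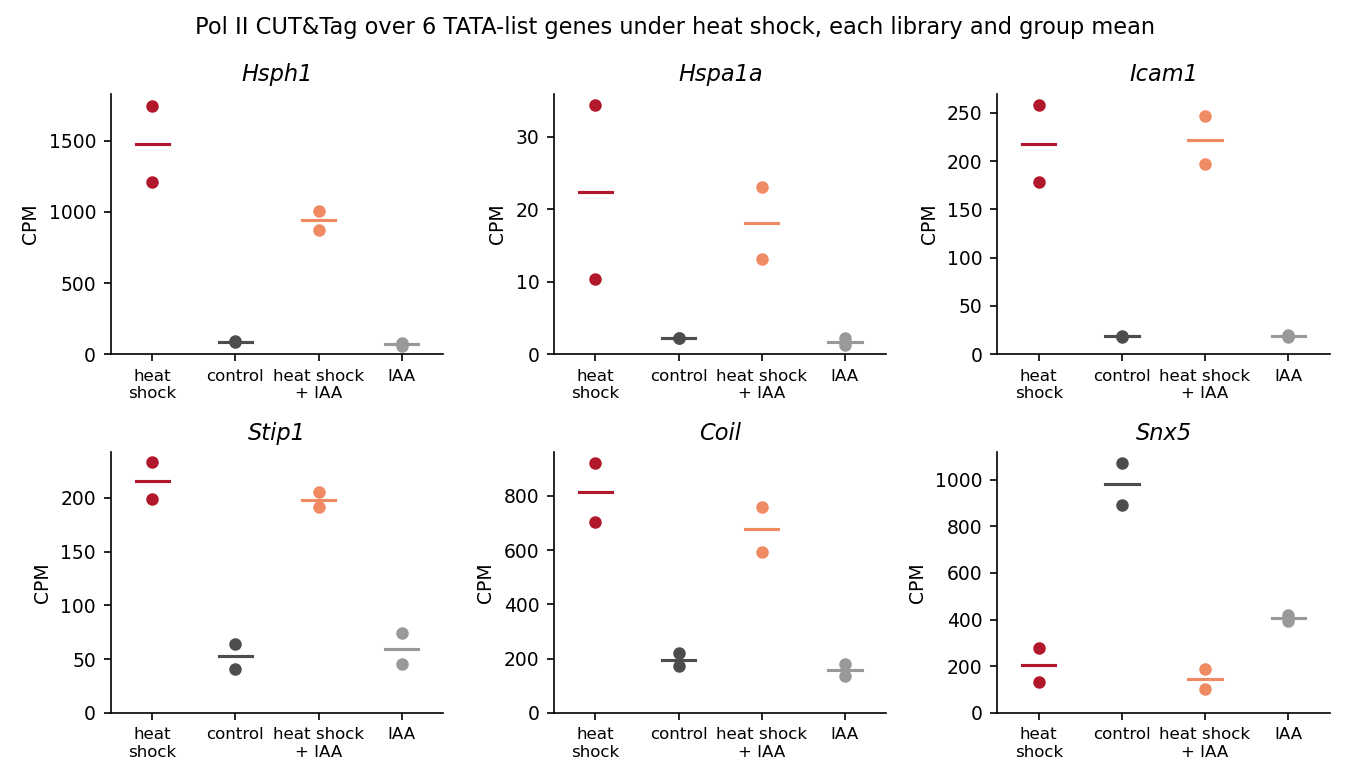
Pol II CUT&Tag occupancy in CPM (y axis, from 0) over 6 TATA-list genes in each library of run 2, for heat shock, control, heat shock with IAA and IAA alone (left to right), bars marking means of 2 libraries. The 5 genes that rose did so in both arms (Hsph1 at 875 and 1010 CPM under heat shock with IAA, against 76.3 and 61.1 CPM), and Snx5 is lower under heat shock in both.

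With IAA present, 72 of 3556 TATA-list genes were called under heat shock, 44 higher and 28 lower (0.698% and 0.704% of all genes tested), or 2.02%, against 1.4% of all genes tested and 1.17% of other genes in the same bins. Of the 19 chaperone genes, 8 were called higher and 0 lower, with a median of 1.16. Hsph1 had 875 and 1010 CPM under heat shock with IAA, against 76.3 and 61.1 CPM with IAA alone (3.78 ± 0.31). Icam1 had 197 and 247 CPM, against 17.9 and 20 CPM (3.55 ± 0.29), and Hspa1b 36.4 and 72.1 CPM, against 6.83 and 5.48 CPM. These genes thus rose with IAA too. Coil rose by 2.10 ± 0.30, Stip1 by 1.73 ± 0.28 and Klf6, an immediate-early zinc finger factor, by 1.82 ± 0.32, while Kpna2, an importin, changed by −1.76 ± 0.30 and Maoa, monoamine oxidase A, by −2.0 ± 0.33.

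Whether IAA altered the response to heat shock was tested as an interaction. By the quasi-likelihood test 0 of 3683 TATA-list genes passed (0.0% of all genes tested), with 26 at an unadjusted p below 0.05 and 0 calls by the likelihood-ratio test or DESeq2. The estimates were 0.89 ± 0.39 for Hspa8 and 0.78 ± 0.39 for Snx5 (adjusted p = 1.0, edgeR, for both), so interactions of that size did not pass with 2 libraries a group. The counts of heat-shock calls also moved with single libraries. Without IAA they were 562 and 240 without heat-shock replicates a and b, and 70 and 44 without control replicates a and b, and with IAA 626, 166, 29 and 35 in the same order. Without 1 library, Npm1, Pabpc4, Prdx1, Gpi1, Ccn2, Socs3, Dppa4, Tfcp2l1 and Hsp90aa1 lost their call in the comparison without IAA (adjusted p up to 0.572, edgeR), and Coil, Stip1, Klf6 and Snx5 in the one with IAA (adjusted p up to 0.165, edgeR).

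Retinoic acid, which drives mESCs toward differentiation through nuclear receptors, gave 1 call among 3560 TATA-list genes (0.0281%, against 0.0183% of all genes tested), with 267 at an unadjusted p below 0.05, 45 calls by the likelihood-ratio test and 28 by DESeq2. Nrip1, a corepressor of nuclear receptors, had 262 and 211 CPM with retinoic acid, against 35 and 39.9 CPM in control (2.66 ± 0.30, adjusted p = 0.0294, edgeR). With a replicate block for same-numbered libraries, which deviated together in run 3, many more genes were called (see the closing section). Several other genes were well apart but did not pass in the fit without the block. Cdx1, a caudal homeobox factor, had 34.1 and 33 CPM with retinoic acid, against 10.2 and 17.2 CPM in control. Lower with retinoic acid were Tdh, a threonine dehydrogenase of mESCs, with 7.65 and 7.12 CPM, against 41.4 and 40.4 CPM, Sdc4 with 46.9 and 66 CPM, against 165 and 155 CPM, and Myc with 15.5 and 10.7 CPM, against 30.1 and 35.4 CPM. Their adjusted p-values were 0.0832 to 0.464 (edgeR). The summed CPM of the 10 mESC markers, 5 of them on the TATA list, was 495 to 854 in retinoic acid libraries, against 1120 to 1860 in C64 controls. That of the 8 fibroblast markers, 4 of them on the TATA list, was 88.9 to 145 CPM, against 43.8 to 82.7 CPM, without overlap, and the part of either list in these differences was not tested. Other marker lists overlapped. Neuroectoderm had 133 to 191 CPM, against 132 to 210 CPM, and mesoderm 96.5 to 124 CPM, against 96.6 to 156 CPM. Primitive endoderm had 949 to 1220 CPM, against 1040 to 1510 CPM.

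With IAA present, 0 of 3560 TATA-list genes were called for retinoic acid (0.0% of all genes tested), with 161 at an unadjusted p below 0.05, 17 calls by the likelihood-ratio test and 16 by DESeq2. Nrip1 had 262 and 194 CPM, against 42.7 and 38.6 CPM with IAA alone, and Has1, a hyaluronan synthase, 49.6 and 40.5 CPM, against 5.92 and 8.37 CPM. Both genes were again well apart, and a replicate block again gave more calls. The interaction of retinoic acid with IAA gave 0 calls of 3734 (0.0% of all genes tested; 30 at an unadjusted p below 0.05, 0 by the other tests). In the shortest bin of lengths, 5.24% of TATA-list genes were more than 2-fold lower with retinoic acid alone. The share was 2.9% for other genes there and 1.39% for all genes tested. The 1 TATA-list gene called by the quasi-likelihood test without a replicate block was Nrip1, which rose. Without 1 library the retinoic acid counts were 3 to 16 without IAA and 1 to 45 with it, the highest without replicate 2 of the treated libraries.

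The shares called can be set side by side. TATA-list genes were called more often than other genes in the same bins in the fit over contexts, in B8 and in both heat shock comparisons. The ratio was widest for IAA over all contexts (1.58% against 0.539%) and narrowest in B8 (7.0% against 6.03%). For the difference of the IAA effect between B8 and C64 the order was the other way (0.0303% against 0.117%). The comparisons share libraries, and the differences between shares were not tested.

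**Figure D4:**
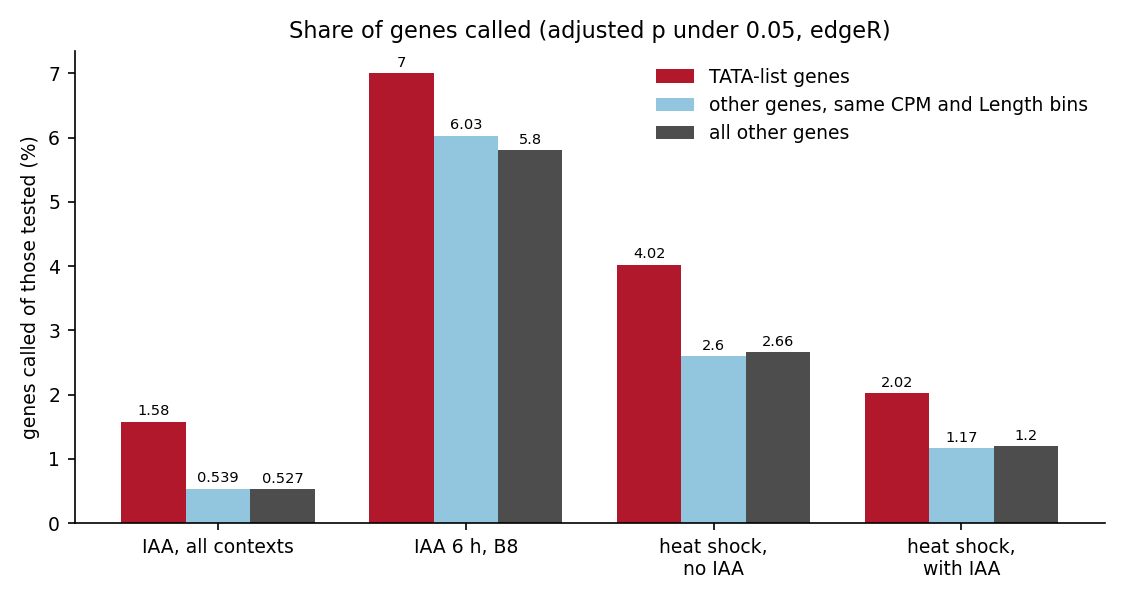
Percentage of tested genes called (y axis, from 0) in 4 comparisons (x axis), for TATA-list genes (red), other genes with the CPM and length bins weighted as in the TATA list (light blue) and all other genes (grey). The red bar is the highest in each, from 1.58% for IAA over all contexts to 7.0% in B8.

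To see whether the list moved as a whole, each library was given a score, the median of TATA-list genes minus that of other genes in the same bins of control CPM and length, on log2(CPM + 1) centred per gene. Differences in this score were small everywhere. For IAA they were −0.0029 in C64 at 6 h, −0.0156 at 16 h, −0.0083 under heat shock, −0.0101 under retinoic acid, −0.0117 in B8 and −0.0056 over all contexts, and the libraries with and without IAA overlapped in each. At 16 h and under retinoic acid, each IAA library nonetheless lay below the untreated library of the same number. In B8 the value was −0.0261 within run 6 and 0.0027 within run 8. Under heat shock the scores were 0.0066 and 0.0092, against −0.0051 and −0.0194 in control, a difference of 0.0202, or a fold of 1.014. With IAA it was 0.0202 as well, with scores of 0.0029 and 0.0104, against −0.006 and −0.0213. The libraries did not overlap in either, but 2 libraries against 2 cannot reach an exact p below 0.05. A change that follows level within a bin stays partly in such a score, and with 10 bins of CPM the differences were 0.0267 and 0.0196. For retinoic acid the differences were −0.0177 without IAA and −0.01 with it, and for B8 against C64 controls 0.0101, all with overlap.

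**Figure D5:**
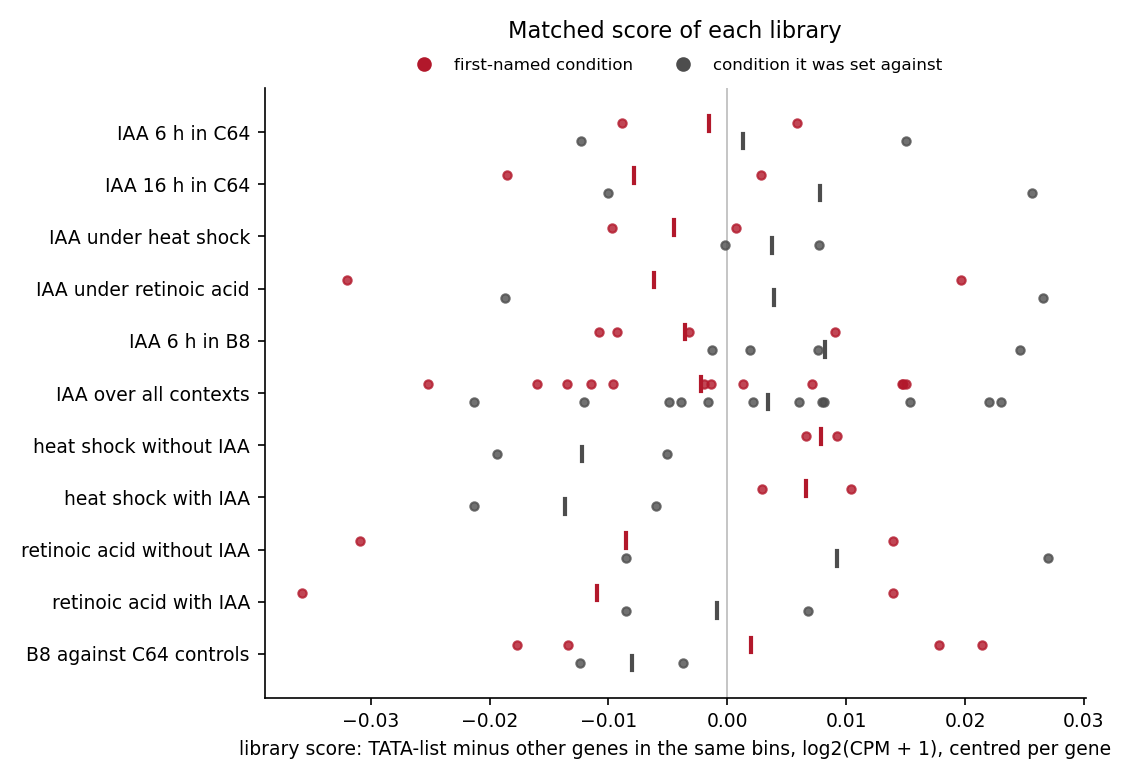
Score of each library (x axis, log2 units) in 11 comparisons (rows), for the first-named condition (red, upper) and the condition it was set against (grey, lower), with vertical marks at the means. Red and grey points are separate in both heat shock rows (differences of 0.0202) and overlap in the 9 others.

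Restricting the score to genes with the motif at the listed start, a choice made after the data were seen, gave larger differences in most comparisons, of either sign. They were −0.0479 for IAA at 6 h in C64, −0.0427 at 16 h, −0.0382 under heat shock, 0.055 in B8 and −0.0256 over all contexts, and 0.0601 and 0.0503 for heat shock without and with IAA. The IAA value in B8 thus had the opposite sign to that in C64. Among tested genes with the motif, 1.26% were called over all contexts (3 of 238), against 1.61% without it (59 of 3675), and 5.73% under heat shock without IAA (11 of 192, 10 of them higher), against 3.93% (131 of 3336). This class has few genes per bin and low counts, so its genes could enter a fit through the group where they were higher.

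Under heat shock, the share of TATA-list genes more than 2-fold higher was above that of other genes in each bin of CPM and of length, beside 2.62% of all genes tested without IAA and 2.32% with it. In the lowest bin of control CPM it was 7.96%, against 5.51% of other genes, and in the highest bin 1.35%, against 1.12%. By length it was 6.79%, against 4.24%, in the shortest bin and 0.759%, against 0.486%, in the longest. With IAA the shares were 6.8%, against 5.76%, in the lowest CPM bin and 5.8%, against 3.6%, in the shortest bin. Genes low in control could pass the filter on low counts through their heat-shocked libraries alone, as Hspa1a did. The filter thus favours rises in the lowest CPM bin, for TATA-list and other genes. In the B8 IAA comparison 15.3% of TATA-list genes of the highest CPM bin were called, against 11.9% of other genes, and 2.15%, against 2.34%, in the lowest.

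The 111 TATA-list genes found only in the larger tables were left out of the fits. Their summed occupancy was 485, 424, 433 and 425 CPM with IAA in B8, against 493, 608, 372 and 383 CPM in B8 control, and the groups overlapped. The largest count among them was that of Gmps, a purine synthesis enzyme, in 9 of the 10 libraries these tables hold, the other being B8 control replicate 2 of run 6.

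Further gene lists showed few calls, to be read beside 1.57% of all genes tested called higher and 1.46% lower under heat shock without IAA (median 0.03), and 2.62% and 3.61% with IAA in B8 (median −0.02). Of 8 p53 targets on the TATA list, Cdkn1a and Pmaip1 were called higher under heat shock without IAA (list median 0.53, against 0.03 over all genes tested), while Cdkn1a and Eda2r, a TNF receptor family member, were called lower among the 5 tested with IAA in B8 (list median −0.26, against −0.02). With IAA in the other contexts 0 of the 8 were called, and the list median was 0.02 in C64 at 6 h, 0.63 at 16 h, −0.05 under heat shock, 0.46 under retinoic acid and 0.03 over all contexts. Of the metallothionein and redox defence genes, Prdx1 and Sqstm1 were called lower among 12 tested under heat shock (median −0.40) and Hmox1 among 10 tested with IAA in B8 (median 0.12). Lmna, a nuclear lamina protein, and Tpm1, a tropomyosin, were called higher among 17 tested actin, tubulin and serum response factor targets under heat shock (median 0.06). Among 16 developmental genes tested, Nes, an intermediate filament of neural progenitors, and Otx2, a homeodomain factor, were called higher under heat shock (median 0.56). Of the 25 retinoic acid response genes on the list, Nrip1 was the 1 called of 19 tested with retinoic acid (median 0.05, against 0.02 over all genes tested). Pluripotency genes had a median of −0.69 with retinoic acid over 17 tested and −0.51 with retinoic acid and IAA. The quasi-likelihood test without a replicate block called none of them.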

How the data were processed

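Pol II CUT&Tag was analysed in 24 libraries. According to the methods, the authors aligned reads to mm10 with Bowtie2, kept duplicates, subsampled each library to a fixed depth per run and counted fragments over whole genes with featureCounts (the commands in the B8 tables' headers set no strand), and they deposited these values as raw counts. Because of the subsampling, totals do not show sequencing depth, and intronic and antisense reads count toward a gene. Gene lengths and listed starts (other values) are those of the deposited tables. Libraries were grouped by the labels, and run 2 columns that name a group but no replicate are called a and b.

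Counts were tested with edgeR 4.0.16 (quasi-likelihood F test with TMM factors, after filterByExpr had removed low genes at its min.count setting of 20) in R 4.3.3, on the libraries of each comparison, or on all 24 with a term for each context, with Benjamini-Hochberg adjustment over all genes tested. Errors are SE of the log2 change. CPM use the TMM factors of each fit, so a library's value differs slightly between comparisons. Bins were 5 of control CPM and 5 of gene length, and scores used a pseudocount of 1. Fits and scores were tested on simulated data. Alternatives were edgeR's likelihood-ratio test (the study's own), DESeq2 1.42.0, RLE scaling, no filter, a replicate block, other bins and pseudocounts, and leaving out each library or context. Motifs were read from RefSeq promoters and listed starts on GRCm38.p6, and Hspa8, Npm1 and Pabpc1 had no promoter entry.

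The TATA-list genes and the gene lists were chosen with earlier results of these data known. Named genes were the up to 10 largest non-overlapping calls per direction, the 5 smallest p where fewer than 5 passed, up to 4 calls per list and genes named by the study. Where genes were named by size of change, separate libraries were thus a condition of the choice and not a result. Outside this rule and chosen after their values were seen were Pabpc1, Ctsl, Ahcy, Sdc4, Klhl13, P4hb, Pdia6, Morf4l2 and Rnd3 over all contexts, Serpinh1, Hspb1, Stip1 and Coil under heat shock, and the genes of the paragraph on further lists.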

Additional observations from a re-analysis of the deposited data

Results flagged for a closer look

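In groups of 4 libraries, the value farthest from the rest was set against the spread of the group (Dixon's criterion). Of 47 groups tested, 4 stood out, where chance gives about 1 in 20. With IAA in B8, replicate 2 of run 6 was the low library for 3 genes, with 8.63 CPM for Hmox1 (gap over range 0.884), 340 CPM for Mid1 (0.907) and 36.2 CPM for Msh4 (0.858), each still below all control libraries. Among B8 controls, replicate 2 of run 6 was high for Nkd1 with 148 CPM (0.933), and this is the control library with 11.8% of reads outside the genes of the C64 tables. The part of that share in the value was not tested.

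The effect of 6 h of IAA on Mid1 differed between B8 and C64 by −1.18 on the log2 scale (−1.1825 before rounding, adjusted p = 0.023, edgeR), with the lower value in B8. It did not pass with a replicate block or, as given above, in most fits that left out 1 library. In those fits the difference ran from −1.29 to −1.07. Within B8, all 4 libraries with IAA were below all 4 controls. The clone and the run cannot be told apart.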

How the results depend on the processing

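Of 96 gene results that were called, 944 of 1073 alternatives kept the direction and the call, 129 kept the direction and lost the call (111 by leaving out libraries or by single runs, 5 by a replicate block and 13 by another setting), and 0 changed sign. Counts of TATA-list genes called moved more. The likelihood-ratio test and DESeq2 gave 11 and 11 for IAA at 6 h in C64, 1 and 3 at 16 h, 97 and 119 over all contexts, 195 and 116 for heat shock with IAA, 45 and 28 for retinoic acid, 17 and 16 for retinoic acid with IAA, 5 and 5 for B8 against C64 controls and 10 and 12 for the difference of the IAA effect between B8 and C64. For IAA in B8 the likelihood-ratio test gave 291. Without the filter on low counts there were 56 for heat shock, 239 for heat shock with IAA, 11 for retinoic acid, 17 for retinoic acid with IAA and 3 for the B8 and C64 difference. IAA in B8 gave 6 within run 6 and 634 within run 8.

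Leaving out 1 library or context gave 3 to 12 for IAA at 6 h in C64, 0 to 15 at 16 h, 0 to 1 under retinoic acid, 66 to 494 in B8, 26 to 65 over all contexts, 44 to 562 for heat shock, 29 to 626 for heat shock with IAA, 3 to 16 for retinoic acid, 1 to 45 for retinoic acid with IAA and 0 to 26 for the B8 and C64 difference. Where 1 library remained in a group, its spread was taken from the other groups.

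Same-numbered libraries deviated together in run 3 (correlations 0.386 to 0.606) and less in run 2 (0.0941 to 0.466, pairing by the column names), not in B8 (−0.0299 and 0.004), and with 2 pairs each they share only a number. With a replicate block the counts were 110 for IAA at 16 h, 53 under retinoic acid, 116 in B8, 470 for retinoic acid, 70 for retinoic acid with IAA and 0 for the B8 and C64 difference (also 0 with run 2 paired). With run 2 paired by column name, chosen after seeing the data, they were 63 for IAA at 6 h, 47 under heat shock, 182 over all contexts, 327 for heat shock and 375 for heat shock with IAA.

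The score of the list against other genes kept its sign under other filters, bins, pseudocounts and choices of other genes, except for IAA at 6 h in C64 without the filter (0.0048). With motif genes at a RefSeq start it was −0.0361 for IAA at 6 h in C64, −0.0509 under heat shock, 0.0033 in B8, 0.0492 for heat shock, 0.0674 for heat shock with IAA and 0.0551 for B8 against C64. With motif genes at the listed start, chosen after seeing the data, it was −0.0479 for IAA at 6 h in C64, −0.0427 at 16 h, −0.0382 under heat shock, 0.055 in B8, −0.0256 over all contexts, 0.0601 for heat shock, 0.0503 for heat shock with IAA and 0.0278 for B8 against C64. In B8 it was −0.0261 within run 6 and 0.0027 within run 8. Leaving out 1 library gave −0.0148 to 0.0133 for IAA at 6 h, −0.0378 to −0.0015 at 16 h, −0.0176 to −0.0044 under heat shock, −0.0397 to 0.0185 under retinoic acid, −0.0155 to −0.0058 in B8, −0.0095 to −0.0022 over all contexts, 0.0231 to 0.0298 for heat shock, 0.0128 to 0.0278 for heat shock with IAA, −0.0444 to 0.0022 for retinoic acid, −0.0414 to 0.0107 for retinoic acid with IAA and 0.0011 to 0.0173 for B8 against C64. The causes of these shifts were not tested. With 2 libraries a group, an absence of calls does not show an absence of change, and B8 run 6 had the fewest reads per library in the subsampled tables.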
